A study of Mus musculus with 18 samples.

Results

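*Tia1* and *Tial1* are a pair of related mouse genes, and the splicing and expression of both were examined here because their protein products are known to act on each other's transcripts. Their products, TIA1 and TIAR, are RNA-binding proteins that act in the nucleus as splicing regulators. They contact uridine stretches in introns and the C protein of the U1 snRNP, the particle that recognises 5′ splice sites. Exons of their own and each other's pre-mRNAs are among those they regulate. Both proteins also assemble into stress granules. The 2 genes were selected on their splicing in cells given a *Tia1* cDNA, compared with cells given an empty vector, so the values of that comparison are descriptions without a test. They are 2 of 9435 genes in the expression table of the knockdown dataset and 2 of 9472 in that of the overexpression dataset, and they hold 102 of the 661941 annotated splicing events, 61 in *Tia1* and 41 in *Tial1*.

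RNA was sequenced from primary mouse embryonic fibroblasts (MEFs) of the genotype Collagen-OKSM, M2rtta+, in which doxycycline induces OCT4, SOX2, KLF4 and MYC (OSKM). Knockdown libraries came from cells without infection (NI), harvested on day 0, and from cells harvested on day 12 of doxycycline that received a lentiviral scrambled shRNA (shSCR), shCPSF3#1 or shCPSF3#2 against *Cpsf3*, or shUL1#1 or shUL1#2 against *Hnrnpul1*, with 2 libraries in each of the 6 groups. Overexpression libraries came from NI cells at day 0 and, at day 12, from cells that received an empty retroviral vector (Empty) or the same vector with T7-tagged *Tia1* cDNA (T7-TIA1), again with 2 libraries in each of the 3 groups. All day 12 cells were infected, sorted for the GFP of the vector and grown on irradiated feeder MEFs, whereas NI cells were not infected. Time, infection, sorting and feeders therefore cannot be told apart in a comparison with NI. One label field gives day 0 for shUL1#2 and day 12 for the NI libraries of the overexpression dataset, and the days in the titles were used. The labels do not say whether the libraries of a group came from separate cultures, so the p-values measure the spread between these libraries only.

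CPSF3 is the endonuclease that cleaves pre-mRNA 3′ ends, and hnRNP UL1 is a nuclear RNA-binding protein. The targeted genes were lower in their knockdowns. *Cpsf3* lay between 86.7 and 117.9 scaled CPM (CPM relative to a scaled library size) in shSCR, against 38.6 to 49.99 in shCPSF3#1 and 42.4 to 77.1 in shCPSF3#2. *Hnrnpul1* lay between 156.4 and 185.2 in shSCR, against 55.7 to 85.8 in shUL1#1 and 38.7 to 63.7 in shUL1#2. *Hnrnpul1* was also 118.2 to 130.7 in shCPSF3#1, below both shSCR libraries, and 132.5 to 166.4 in shCPSF3#2, and *Cpsf3* was 74.2 to 88.5 in shUL1#1 and 79.5 to 88.2 in shUL1#2. Cell type markers moved with the groups. The summed level of 9 listed fibroblast markers of 10 was 24853 to 27842 in NI, 12496 to 14539 in shSCR and 21542 to 38211 in the knockdowns. *Krt8* and *Krt18*, the 2 epithelial markers listed of 8, summed to 16.0 to 20.4 in NI, 297.7 to 538.9 in shSCR and 31.7 to 220.7 in the knockdowns. *Lyz2* and *Cd68*, 2 of 3 blood cell markers, summed to 7.3 to 8.7 in NI, 161.6 to 279.1 in shSCR and 247.1 to 1735.8 in the knockdowns. None of the 9 pluripotency markers and none of the 3 endothelial markers was listed. In the overexpression dataset, the fibroblast markers summed to 28009 to 52043 in NI, 11598 to 13936 in Empty and 10485 to 11303 in T7-TIA1, and no epithelial or blood cell marker was listed. The part of cell composition in the results on *Tia1* and *Tial1* was not tested, and in bulk RNA fewer cells of a type and less RNA per cell cannot be told apart.

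Both genes have the same exon plan. *Tia1* (ENSMUSG00000071337) lies on chromosome 6, 86404219 to 86433405 of mm10, and *Tial1* on chromosome 7, 128439777 to 128461717, on the opposite strand. Coding exons 2 to 10 have equal lengths in the 2 genes (97, 99, 55, 88, 76, 109, 96, 85 and 124 nt), with 74.5% to 83.0% of bases identical. In both, the intron between the 88-nt and the 76-nt exon holds an alternative cassette. In *Tia1* this is a 66-nt exon (MmuEX0047286). In *Tial1* it is formed by a 69-nt exon (MmuEX0047293) and a 68-nt exon (MmuEX0047295) behind it, which the annotation also joins into 1 exon of 377 nt. *Tia1* has further alternative segments: a 33-nt exon (MmuEX0047285), a 119-nt exon (MmuEX0047287), and a distal 5′ splice site that extends the 109-nt exon by 133 nt (MmuALTD0014304-7/8) into a 379-nt intron that can also be retained (MmuINT0160065). *Tial1* also has a 59-nt exon (MmuEX0047291) within a 334-nt intron that can be retained (MmuINT0160074), and a 60-nt exon (MmuEX0047294) near the start of the coding region.

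Nearly all of these segments bring a stop codon into the reading frame. The reference mRNA of either gene encodes 375 codons, and the 33-nt exon lengthens *Tia1* to 386. The 66-nt exon stops *Tia1* after 133 codons, the 119-nt exon after 93, and the distal 5′ splice site or the retained 379-nt intron after 201. In *Tial1*, the 68-nt exon alone stops the frame after 134 codons, the 69-nt exon or the 377-nt form after 135, the 60-nt exon after 28, the 59-nt exon after 292 and the retained 334-nt intron after 312. Each of these stops lies 181 to 974 nt upstream of the last exon junction. Stops in such a position are known to mark an mRNA for nonsense-mediated decay, and PSI, which is measured on the RNA that remains, can then understate how often a segment is spliced in. In GENCODE vM21, the 66-nt and 119-nt exons and the distal site of *Tia1* and the 69-nt, 68-nt, 377-nt and 59-nt exons of *Tial1* each occur in at least 1 transcript of the nonsense-mediated decay class and in no protein-coding one. The 33-nt exon occurs in 2 protein-coding transcripts and the 60-nt exon in 1. The cassette exons and the 59-nt exon are shown from their first base to the stop codon, in capitals, to let the 2 genes be compared.
*Tia1* 66-nt exon, chr6:86423606-86423642, plus strand: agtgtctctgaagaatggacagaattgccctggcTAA
*Tial1* 69-nt exon, chr7:128447071-128447107, minus strand: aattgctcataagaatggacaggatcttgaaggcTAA
*Tial1* 68-nt exon, chr7:128446765-128446798, minus strand: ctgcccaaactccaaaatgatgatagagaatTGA
*Tial1* 59-nt exon, chr7:128444083-128444100, minus strand: gtgtcaccaccccaaTAA
The 66-nt exon of *Tia1* and the 69-nt exon of *Tial1* were identical at 48 of 71 aligned positions (67.6%), and at 27 of 39 up to the stop codon. The 66-nt and 68-nt exons were identical at 41 of 74 (55.4%).

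The 5′ splice sites of alternative segments, of the 88-nt exon of each gene and of the 124-nt exon of *Tial1* are shown next. They are shown because TIA proteins bind uridine-rich sequence at such sites. Each run holds 3 exonic and 27 intronic bases as DNA, with runs of at least 4 T in capitals.
*Tia1* 66-nt exon, chr6:86423669-86423698, plus strand: aatgttggcgtgcTTTTTTactttctgact
*Tia1* 119-nt exon, chr6:86419810-86419839, plus strand: aaggtatttctttgattgttcttcacaaaa
*Tia1* 33-nt exon, chr6:86419131-86419160, plus strand: aaggtaattgtatcttcttaaacataaaaa
*Tia1* distal site, chr6:86425201-86425230, plus strand: aatgtacttagTTTTcattcttgtgaTTTT
*Tia1* 88-nt exon, chr6:86420409-86420438, plus strand: ttcgtaagtagcaaaagataaatataacac
*Tial1* 69-nt exon, chr7:128447012-128447041, minus strand: gttgtagaTTTTTTTTctcatttctattta
*Tial1* 59-nt exon, chr7:128444015-128444044, minus strand: agggtgcttacttagTTTTTctcttccttg
*Tial1* 124-nt exon, before the 334-nt intron, chr7:128444254-128444283, minus strand: caggtaattcaaTTTTTcttagcatcTTTT
*Tial1* 88-nt exon, chr7:128448094-128448123, minus strand: atcgtaagtatcgtaagcagtgttagactc
Of the 27 intronic bases, 14 were T after the 66-nt exon and 16 at the distal site of *Tia1*, against 5 after the 88-nt exon. In *Tial1*, 17 were T after the 69-nt exon, 15 after the 59-nt exon and 15 after the 124-nt exon, against 8 after the 88-nt exon. The 88-nt and 124-nt exons are all coding exons of the reference mRNA, and the introns behind them can be retained. The 88-nt sites are a single chosen site per gene, so these counts do not compare alternative with constitutive sites. The 119-nt and 33-nt exons of *Tia1* were followed by 13 and 10 T and by no run of 4. Among 30297 annotated 5′ splice sites of protein-coding genes read in the same way, on the transcribed strand only, 11.5% held TTTT within 27 bases, the median number of T was 7, and 3.18% had 14 or more. These matches describe the sequence and are not evidence of binding. The site after the 68-nt exon was not analysed here. The site after the 69-nt exon was used by few reads, as given below.

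*Tia1* expression at day 12 was higher in the knockdowns than in shSCR, and *Tial1* expression was lower. *Tia1* in the knockdown dataset had 63.7 and 67.6 scaled CPM in NI, 69.7 and 66.7 in shSCR, 82.4 and 93.9 in shCPSF3#1, 86.9 and 87.4 in shCPSF3#2, 112.9 and 103.4 in shUL1#1, and 98.4 and 86.3 in shUL1#2. All 8 knockdown libraries lay above all 4 NI and shSCR libraries. *Tial1* had 137.4 and 125.3 scaled CPM in NI, 162.9 and 166.8 in shSCR, 111.6 and 119.1 in shCPSF3#1, 113.0 and 141.5 in shCPSF3#2, 137.4 and 141.5 in shUL1#1, and 101.7 and 116.4 in shUL1#2. All 8 knockdown libraries lay below both shSCR libraries. By mean, *Tia1* was ordered shUL1#1 (108 ± 6.66, SD), shUL1#2 (92.4 ± 8.58), shCPSF3#1 (88.1 ± 8.15), shCPSF3#2 (87.1 ± 0.36), shSCR (68.2 ± 2.14) and NI (65.7 ± 2.77), n = 2 each. Of these neighbours, shUL1#2 and shCPSF3#1, the 2 shCPSF3 groups, and shSCR and NI overlapped. *Tial1* was ordered shSCR (165 ± 2.7), shUL1#1 (139 ± 2.85), NI (131 ± 8.56), shCPSF3#2 (127 ± 20.1), shCPSF3#1 (115 ± 5.25) and shUL1#2 (109 ± 10.4), n = 2 each, and all neighbours from NI downwards overlapped.

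**Figure D1:**
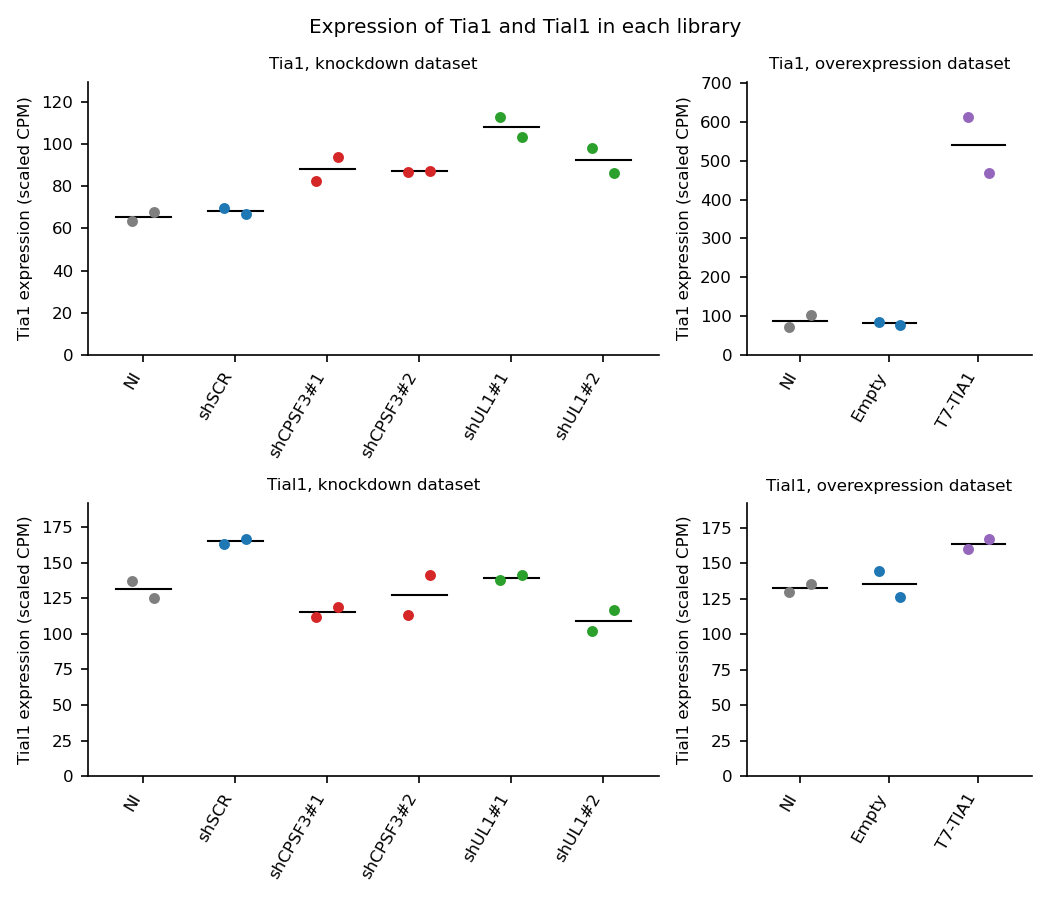
Expression of *Tia1* (top) and *Tial1* (bottom) in scaled CPM in every library of the knockdown dataset (left) and the overexpression dataset (right), with points for libraries and a line for the mean of each group. *Tia1* in the 8 knockdown libraries sits above NI and shSCR, *Tial1* sits below shSCR, and *Tia1* in T7-TIA1 reaches 469 and 613 scaled CPM including cDNA reads.

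On the scale of log2(scaled CPM + 1), tested with *limma* and adjusted over all listed genes, *Tia1* differed by 0.05 (SE 0.11, adjusted p = 0.729) between shSCR and NI, a comparison in which 44.5% of all genes passed. It rose by 0.36 (SE 0.10, adjusted p = 0.0335) with shCPSF3 against shSCR, where 26.1% of genes passed, and by 0.54 (SE 0.10, adjusted p = 0.0166) with shUL1 against shSCR, where 10.5% passed. For *Tial1*, the difference was 0.33 (SE 0.13, adjusted p = 0.0786) between shSCR and NI, −0.45 (SE 0.12, adjusted p = 0.0263) with shCPSF3 and −0.42 (SE 0.12, adjusted p = 0.0559) with shUL1. The fall with shCPSF3 passed. That with shUL1 did not, but it passed with the replicate number as a block (adjusted p = 0.0214 by *limma*, where 29.3% of genes passed). The *Tial1* difference between shSCR and NI also passed with the block (adjusted p = 0.0413 by *limma*, where 5608 of 9435 genes did). Between shCPSF3 and shUL1, where 0.0424% of genes passed (4 genes, and 1207 at an unadjusted p under 0.05), *Tia1* differed by −0.19 (adjusted p = 0.388) and *Tial1* by −0.03 (adjusted p = 0.907). The comparisons with shSCR share its 2 libraries. Leaving out either shSCR library ended each of the 3 calls, with *Tia1* between 0.32 and 0.39 for shCPSF3 and between 0.51 and 0.57 for shUL1, and *Tial1* between −0.46 and −0.43 for shCPSF3. So did leaving out shCPSF3#2 replicate 1 for both genes (0.36 for *Tia1*, −0.37 for *Tial1*), either NI library (0.36) or shCPSF3#1 replicate 2 (0.31) for *Tia1* with shCPSF3, shCPSF3#1 replicate 1 for *Tial1* (−0.42), and replicate 1 of shUL1#1 (0.51) or shUL1#2 (0.50) for *Tia1* with shUL1.

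In shSCR at day 12 of reprogramming, the segments of *Tia1* that carry stop codons were more included than in NI at day 0. Inclusion is given as percent spliced in (PSI), the share of informative reads in which an exon, an intron or the stretch up to a splice site is kept. The 66-nt exon had a PSI of 22.9 and 20.9 in NI and of 70.4 and 69.7 in shSCR. The groups were 46.8 PSI apart at their closest libraries. Its inclusion rose by 3.04 log2 units of inclusion over exclusion reads (SE 0.24, adjusted p = 0.00466 by the read-level test with *limma*). The 119-nt exon had 4.12 and 3.15 in NI and 22.3 and 16.5 in shSCR, and rose by 2.62 (SE 0.46, adjusted p = 0.0277). In every library it had fewer reads at the junction into it than at the junction out of it, for example 13 and 43 in shSCR replicate 1. The distal 5′ splice site of the 109-nt exon was used at 10.6 and 4.58 PSI in NI and 45.0 and 38.1 in shSCR, a rise of 2.96 (SE 0.36, adjusted p = 0.0117). Its regular site (MmuALTD0014304-2/8) fell from a mean of 91.8 ± 4.00 PSI to 58.0 ± 5.57 (SD, n = 2), by 2.90 log2 units (SE 0.35, adjusted p = 0.0115). The 379-nt intron behind it was retained at 9.40 and 10.98 PSI in NI and at 37.3 and 36.9 in shSCR, a rise of 2.33 (SE 0.19, adjusted p = 0.00536). Most of the exon-intron reads of this intron, 82.1% to 95.3% in all 18 libraries, lay at its upstream end, where a transcript that uses the distal site gives reads too, so these 2 events share reads. The 33-nt exon, which carries no stop codon, had 77.1 and 81.2 PSI in NI and 83.1 and 76.8 in shSCR, and its groups overlapped (0.09, adjusted p = 0.925).

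The introns of *Tia1* that hold the cassette exons were also more retained in shSCR than in NI. Their spliced reads join the exons around the cassette, as reads that skip it do, so retention and cassette PSI share reads. The 3933-nt intron around the 66-nt exon (MmuINT0160063) was retained at 14.1 and 17.1 PSI in the NI libraries and at 49.8 and 51.2 in the shSCR libraries, lowest and highest, and rose by 2.43 (SE 0.39, adjusted p = 0.0234). The 1190-nt intron around the 119-nt exon (MmuINT1033093) went from 28.7 and 29.1 to 66.2 and 69.1 PSI, a rise of 2.34 (SE 0.17, adjusted p = 0.00405). A 168-nt intron upstream (MmuINT0160062) met the PSI rule, with means of 4.87 and 17.8, but not the read-level test (1.98, SE 0.75, adjusted p = 0.168). With the replicate number as a block it passed (1.92, SE 0.37, adjusted p = 0.036). A site pair with a PSI of 100 in every knockdown library (MmuALTD1034712) also passed, by 1.98 log2 units (SE 0.30, adjusted p = 0.0194), but it had 22 to 96 reads and no exclusion reads, so that its value follows the inclusion reads alone, and it is not read as a change.

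In *Tial1*, the cassette, the 59-nt exon and 3 introns were also more included in shSCR than in NI. The 68-nt exon had a PSI of 22.9 and 21.4 in NI and of 70.4 and 48.6 in shSCR, and rose by 2.44 (SE 0.47, adjusted p = 0.0352). For the 69-nt exon the values were 16.7 and 17.2 in NI and 44.6 and 29.8 in shSCR, a rise of 1.61 (SE 0.36, adjusted p = 0.0498). The 2 shSCR libraries differed from each other by more than those of any other group of the knockdown dataset at both exons, with replicate 1 the higher. The 59-nt exon had 2.87 and 2.92 in NI and 19.3 and 10.5 in shSCR, and rose by 2.63 (SE 0.42, adjusted p = 0.0221). The 334-nt intron around it was retained at 8.15 and 8.47 PSI in NI and at 34.9 and 34.1 in shSCR, where the libraries of each group lay within 1 PSI, and rose by 2.53 (SE 0.26, adjusted p = 0.0081). Retention of the 1850-nt intron that holds the cassette (MmuINT0160079) rose by 1.71 (SE 0.32, adjusted p = 0.0344), from 22.5 and 22.9 PSI to 45.9 and 52.8. Retention of the last intron, of 1147 nt (MmuINT0160075), rose by 1.86 (SE 0.22, adjusted p = 0.0106), from 2.62 and 4.10 to 11.03 and 12.1 PSI. The 60-nt exon, with 4.62 and 4.53 in NI and 2.56 and 3.61 in shSCR, did not pass (−0.55, adjusted p = 0.168).

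**Figure D2:**
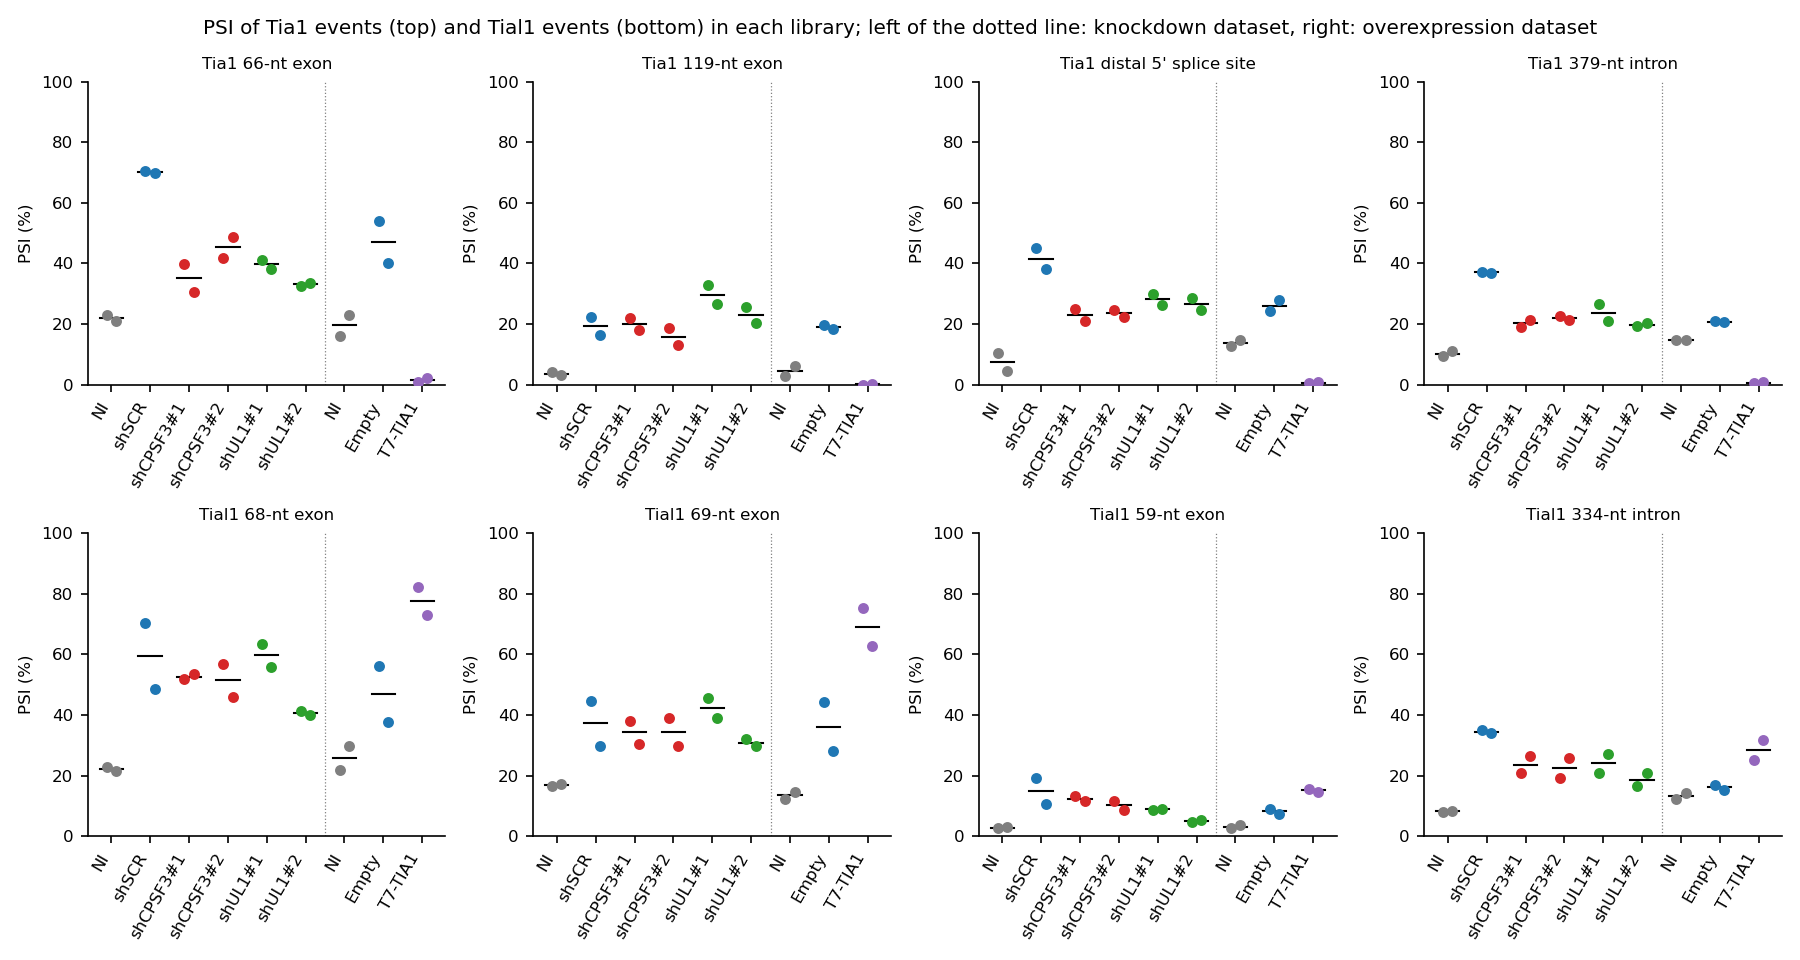
PSI in percent of 4 *Tia1* events (top) and 4 *Tial1* events (bottom) in all 18 libraries, with points for libraries, a line for the mean of each group, and a dotted line between the knockdown and overexpression datasets. The 66-nt exon of *Tia1* stands near 70 PSI in shSCR and between 30.7 and 48.9 in the knockdowns, while in T7-TIA1 the *Tia1* events lie at the bottom of the axis with cDNA reads counted and the 69-nt and 68-nt exons of *Tial1* stand at their highest.

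Over all covered events, 15 of the 96 events of the 2 genes passed the read-level test between shSCR and NI, where 4.35% of 374159 events did. By the PSI rule (at least 10 PSI between means and at least 5 between the closest libraries), 8 of 57 events of *Tia1* and 5 of 39 of *Tial1* were differentially spliced, against 1.22% of all events. Events of one gene share reads and many of the remaining ones are constitutive exons, so these counts do not stand for that many separate changes. The calls of the 66-nt exon, of both 109-nt exon sites, and of the 1190-nt and 379-nt introns passed with each library left out in turn. Leaving out NI replicate 1 ended every other call of this comparison, as did leaving out NI replicate 2 except for the 334-nt and 1147-nt introns. Leaving out shSCR replicate 1 ended those of the 119-nt, 68-nt and 69-nt exons, of the 3933-nt and 1850-nt introns and of the site pair at 100 PSI, with the 69-nt exon then at its lowest, 1.05, and the 68-nt exon at 1.72. Leaving out shSCR replicate 2 ended those of the 119-nt exon, of the 3933-nt and 1850-nt introns and of the site pair. The calls of the 68-nt and 69-nt exons and of the 1850-nt intron also ended without single knockdown libraries, where only the shared spread changes.

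The overexpression dataset holds a second control of day 12, Empty, and its values beside its own NI libraries are given as a description. In Empty the 66-nt and 119-nt exons and the distal site of *Tia1* and the 69-nt, 68-nt and 59-nt exons of *Tial1* lay above both NI libraries, as in shSCR. Of the introns, the 1190-nt one had 34.7 and 41.0 PSI in NI and 64.3 and 54.9 in Empty, without overlap. The 379-nt intron had 14.6 and 14.9 in NI and 21.1 and 20.55 in Empty, and the 334-nt intron 12.3 and 14.4 against 17.0 and 15.3, both without overlap but closer together than in the knockdown dataset. The other introns overlapped between NI and Empty, with the 3933-nt intron at 16.0 and 21.9 against 35.1 and 19.1 PSI, the 168-nt intron at 11.3 and 15.8 against 13.6 and 17.0, the 1850-nt intron at 31.6 and 35.7 against 42.7 and 31.5, and the 1147-nt intron at 5.92 and 6.97 against 6.36 and 6.95. For these 4 introns the separation of shSCR from NI was not matched by Empty.

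Each single shRNA group at day 12 also differed from NI. By the PSI rule, 7 *Tia1* and 5 *Tial1* events were differentially spliced in shCPSF3#1 (0.688% of all events), 6 and 4 in shCPSF3#2 (0.656%), 7 and 4 in shUL1#1 (0.728%), and 5 and 4 in shUL1#2 (0.665%). The 1 event named only here is the 6165-nt intron of *Tial1* (MmuINT0160076), which had 50 to 108 reads per library and was retained at 10.6 and 15.5 PSI in shCPSF3#1 against 23.2 and 27.1 in NI.

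The 66-nt exon of *Tia1* had a lower PSI in both knockdowns at day 12 than in shSCR. Its PSI was 39.7 and 30.7 with shCPSF3#1, 42.0 and 48.9 with shCPSF3#2, 41.2 and 38.2 with shUL1#1, and 32.6 and 33.6 with shUL1#2. These libraries lay below both shSCR libraries and above both NI libraries. Inclusion fell by 1.80 log2 units with shCPSF3 (SE 0.18, adjusted p = 0.0172) and by 2.02 with shUL1 (SE 0.18, adjusted p = 0.0164), from 303 to 572 reads per library. Retention of the 379-nt intron was 19.1 and 21.4 PSI with shCPSF3#1, 22.6 and 21.5 with shCPSF3#2, 26.5 and 21.1 with shUL1#1, and 19.2 and 20.4 with shUL1#2. It fell by 1.12 with shCPSF3 (SE 0.12, adjusted p = 0.0222) and by 1.07 with shUL1 (SE 0.12, adjusted p = 0.0349), and again the values lay between those of NI and shSCR. The distal 5′ splice site, which shares reads with that intron, had 25.1 and 21.1, 24.7 and 22.4, 29.9 and 26.4, and 28.5 and 24.5 PSI in the same 4 groups. It met the PSI rule in both comparisons, with differences of −18.3 and −14.2 PSI, but not the read-level test (−1.22, adjusted p = 0.0624, and −0.91, adjusted p = 0.145). With the replicate number as a block, its difference with shCPSF3 passed (adjusted p = 0.0289).

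The 3933-nt intron around the 66-nt exon likewise met the PSI rule, at −24.7 and −26.7 PSI, and not the read-level test (adjusted p = 0.078 with shCPSF3 and 0.0892 with shUL1). Its spliced reads join the same exons as the reads that skip the 66-nt exon, so these events are not separate. In contrast, the 119-nt exon had 22.1 and 18.04 PSI with shCPSF3#1, 18.8 and 13.0 with shCPSF3#2, 33 and 26.5 with shUL1#1, and 25.5 and 20.3 with shUL1#2. The groups overlapped with shSCR except shUL1#1, which lay above it, and neither factor passed the test (−0.20, adjusted p = 0.758, and 0.52, adjusted p = 0.455). The 1190-nt intron around that exon differed by −0.55 (adjusted p = 0.111) and 0.02 (adjusted p = 0.969). Differences of the 119-nt exon from the 66-nt exon were not tested as such.

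**Figure D3:**
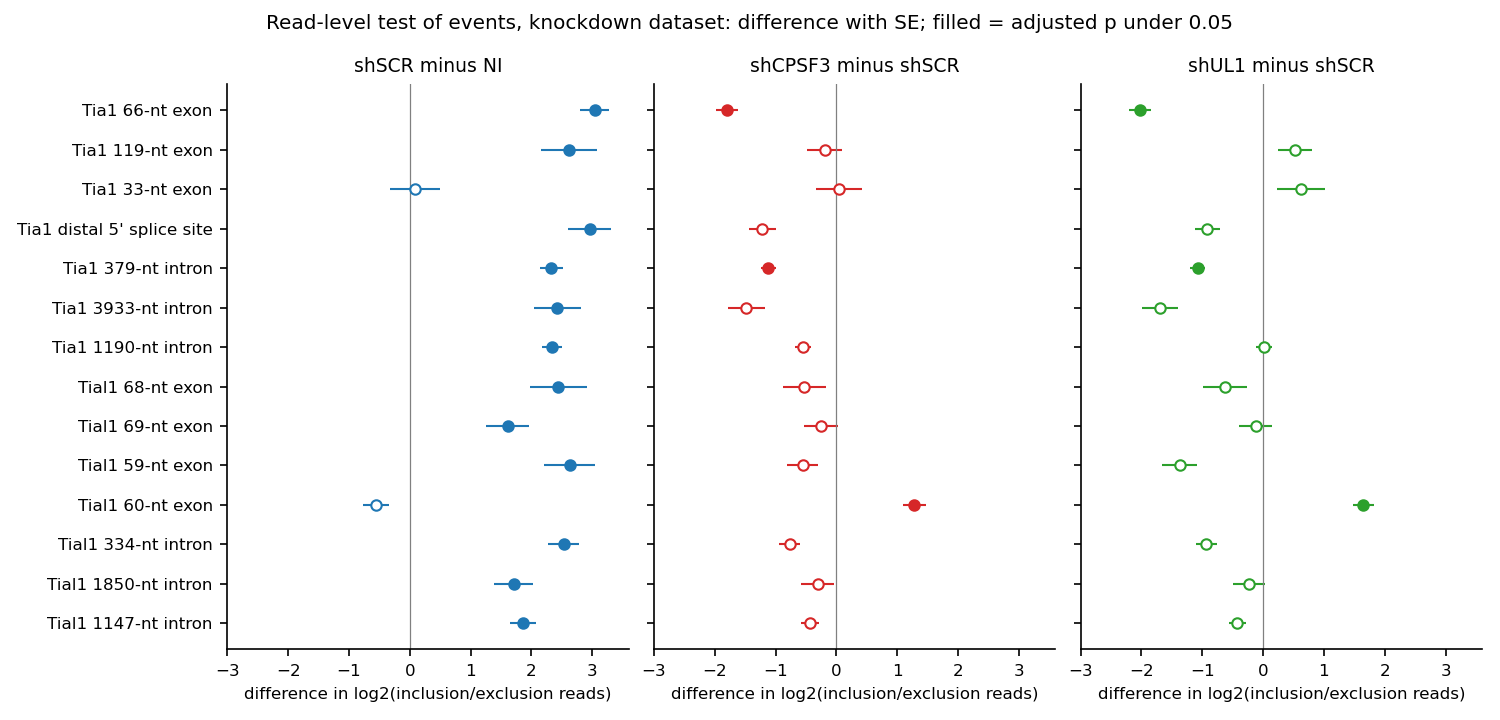
Differences in log2 of inclusion over exclusion reads with their SE for 7 *Tia1* and 7 *Tial1* events in 3 comparisons of the knockdown dataset, with filled points for an adjusted p under 0.05. In shSCR minus NI, 12 of the 14 points are filled and lie to the right of 0, and in each knockdown minus shSCR the filled points are the 66-nt exon and the 379-nt intron of *Tia1*, to the left, and the 60-nt exon of *Tial1*, to the right.

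The cassette of *Tial1* did not pass the test in either knockdown. The 68-nt exon had a PSI of 51.9 and 53.4 with shCPSF3#1, 57.0 and 46.1 with shCPSF3#2, 63.4 and 55.9 with shUL1#1, and 41.4 and 39.9 with shUL1#2, of which only shUL1#2 lay below both shSCR libraries. Against shSCR the log2 difference was −0.53 (SE 0.35, adjusted p = 0.462) with shCPSF3 and −0.63 (SE 0.36, adjusted p = 0.476) with shUL1. For the 69-nt exon, which ranged from 29.8 to 39.0 PSI with shCPSF3 and from 29.9 to 45.7 with shUL1, it was −0.26 (SE 0.28, adjusted p = 0.657) and −0.12 (SE 0.27, adjusted p = 0.871). A p-value that misses the threshold does not show that the cassette was spliced alike, and the contrast with the 66-nt exon of *Tia1* was not tested as such. The 59-nt exon had 8.81 to 13.2 PSI with shCPSF3 and 4.81 to 8.87 with shUL1, the former overlapping with shSCR and the latter below it, and the differences of −0.56 (SE 0.26, adjusted p = 0.301) and −1.37 (SE 0.29, adjusted p = 0.124) did not pass. The 334-nt intron was the 1 event of *Tial1* that met the PSI rule in both comparisons, with 19.3 to 26.4 PSI under shCPSF3 and 16.6 to 27.2 under shUL1 (−11.4 and −13.1 PSI), and it did not pass the read-level test (−0.77, adjusted p = 0.0953, and −0.94, adjusted p = 0.0976).

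The 60-nt exon was the 1 event of *Tial1* that rose against shSCR. Its PSI was 8.15 and 6.92 with shCPSF3#1, 7.53 and 7.04 with shCPSF3#2, 8.91 and 8.19 with shUL1#1, and 8.85 and 11.5 with shUL1#2. These levels are low, but all 8 libraries lay above NI and shSCR. Inclusion rose by 1.28 with shCPSF3 (SE 0.19, adjusted p = 0.0402) and by 1.65 with shUL1 (SE 0.18, adjusted p = 0.0306), from 398 to 681 reads per library.

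These differences are relative to shSCR, and the Empty libraries lay apart from shSCR in the 3 events that passed. At the 66-nt exon Empty had 54.1 and 40.1 PSI, below both shSCR libraries and overlapping with the knockdowns. At the 379-nt intron (21.1 and 20.55), the distal site (24.3 and 28) and the 60-nt exon (7.59 and 7.33), both Empty libraries lay within the range of the 8 knockdown libraries. Empty belongs to another dataset and carries a retroviral in place of a lentiviral vector, so no test was run between them, and scaled CPM, normalised separately in the 2 datasets, were not set against each other.

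In all, 3 of the 96 events passed the read-level test with shCPSF3, against 0.659% of all events, and the same 3 with shUL1, against 0.178%. With the replicate number as a block, 5 passed with shCPSF3, against 0.938% of all events, and the 2 added were both 5′ splice sites of the 109-nt exon. The PSI rule called 5 *Tia1* events and 1 *Tial1* event in each, against 0.428% and 0.369% of all events. Between shCPSF3 and shUL1, 0% of the 374159 events passed in *limma*, although 25554 had an unadjusted p under 0.05, and the 66-nt exon differed by 0.22 (adjusted p = 0.765). Leaving out shSCR replicate 1 ended each read-level call made without the block. Over all libraries left out in turn, the difference of the 66-nt exon lay between −2.07 and −1.65. Without shSCR replicate 2 the calls of the 379-nt intron ended with both factors and that of the 60-nt exon with shCPSF3. The call of the 66-nt exon with shUL1 ended when any 1 of the 4 shUL1 libraries was left out. Those of the 379-nt intron and the 60-nt exon also ended without single NI or knockdown libraries, with differences from −1.19 to −0.98 and from 1.07 to 1.93.

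Single junctions of the cassettes show which reads lie behind the PSI. In *Tia1*, reads joining the 88-nt exon directly to the 76-nt exon numbered 0.763 and 0.798 RPM in NI (reads per 1000000 reads on the events of all other genes), 0.299 and 0.254 in shSCR, 0.626 to 1.017 in the shCPSF3 libraries and 0.969 to 1.108 in the shUL1 libraries. The skipping junction was thus lowest in shSCR, with no overlap with any other group, and in Empty of the overexpression dataset it was 0.621 and 0.860. Reads that include the 66-nt exon, as the mean of its 2 junctions, were 0.227 and 0.211 RPM in NI, 0.710 and 0.584 in shSCR, 0.451 to 0.598 with shCPSF3 and 0.515 to 0.728 with shUL1. In including reads, shCPSF3#2 and shUL1#1 overlapped with shSCR, and shCPSF3#1 and shUL1#2 lay below it. In skipping reads, no knockdown group overlapped with shSCR. The junction into the exon had more reads than the junction out of it in every library, for example 223 and 100 in shSCR replicate 1.

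In *Tial1*, the reads entering the 76-nt exon were divided by whether they came from the cassette or from the 88-nt exon, a measure chosen after the PSI values were seen. From the cassette came 34.3% and 31.7% in NI (Wilson 95% intervals 29.7% to 39.1% and 27.1% to 36.6%), 79.6% and 61.6% in shSCR (76.3% to 82.5% and 57.1% to 65.9%), 58.2% to 68.5% in the shCPSF3 libraries and 53.2% to 75.3% in the shUL1 libraries. The 2 shSCR libraries differed beyond counting error, which is all that these intervals cover. The skipping junction stood at 1.041 and 0.942 RPM in NI and at 0.576 and 0.803 in shSCR, and ranged from 0.459 to 0.713 in the knockdowns, so that here the knockdowns did not stand above shSCR. Reads joined to the 3′ splice site of the 68-nt exon were only 12.3% to 32.6% of the reads leaving its 5′ splice site, for example 125 and 511 in shSCR replicate 1, where 379 reads joined the 88-nt exon to the 3′ splice site of the 69-nt exon. The annotated 377-nt exon runs from that 3′ splice site to the 5′ splice site of the 68-nt exon. Reads joining the 69-nt exon to the 68-nt exon numbered only 29 in the same library. In T7-TIA1 replicate 1 they numbered 47, against 683 into the 3′ splice site of the 69-nt exon. Few reads thus used the 5′ splice site of the 69-nt exon, and its PSI rests mostly on its 3′ splice site.

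**Figure D4:**
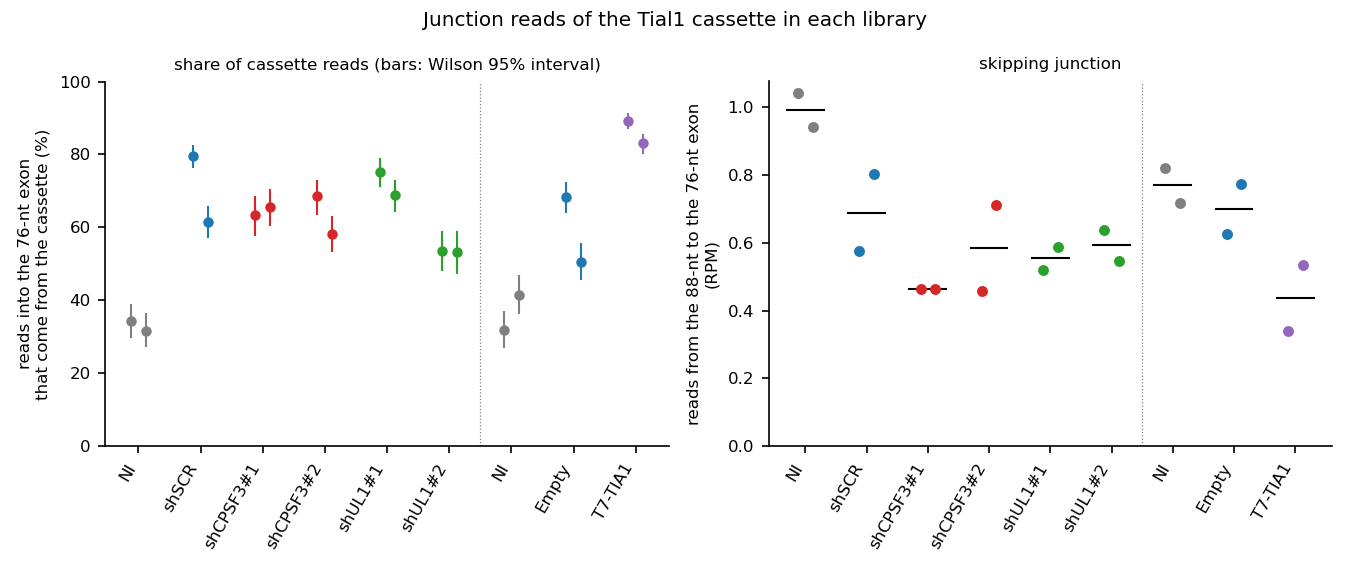
Percent of reads entering the 76-nt exon of *Tial1* that come from the cassette, with Wilson 95% intervals for counting error (left), and reads that skip the cassette in RPM (right), in all 18 libraries. The share rises from 31.7% to 34.3% in NI of the knockdown dataset to 61.6% and 79.6% in shSCR, and stands highest in T7-TIA1, at 83.1% and 89.3%.

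With T7-TIA1, the cassette of *Tial1* was at its highest inclusion of all groups, which is part of what the genes were selected on. The 69-nt exon had a PSI of 12.5 and 14.5 in NI of the overexpression dataset, 44.2 and 28.01 in Empty, and 75.3 and 62.7 in T7-TIA1. For the 68-nt exon the values were 21.8 and 29.7, 56.0 and 37.8, and 82.3 and 72.9. The 334-nt intron was retained at 12.3 and 14.4 PSI in NI, 17.0 and 15.3 in Empty, and 25.1 and 31.9 in T7-TIA1. In these 3 events the T7-TIA1 libraries lay above both Empty libraries, by 32.9, 30.7 and 12.3 PSI in the means. The 59-nt exon (2.62 and 3.78, 9.14 and 7.35, 15.8 and 14.8) and the 60-nt exon (5.29 and 5.54, 7.59 and 7.33, 15.7 and 10.6) were ordered in the same way without reaching 10 PSI. From the cassette came 31.8% and 41.6% of the reads entering the 76-nt exon in NI, 68.4% and 50.5% in Empty and 89.3% and 83.1% in T7-TIA1, and the skipping junction stood at 0.822 and 0.718, 0.625 and 0.773, and 0.339 and 0.534 RPM. The cDNA is one of *Tia1* and holds none of these *Tial1* segments. *Tial1* expression was not lower in T7-TIA1, with 130 and 135 scaled CPM in NI, 145 and 126 in Empty, and 160 and 167 in T7-TIA1, a log2 difference of 0.28 from Empty.

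*Tia1* itself had 72.1 and 102.8 scaled CPM in NI of the overexpression dataset, 85.6 and 77.04 in Empty and 613 and 469 in T7-TIA1, where reads of the cDNA and of the endogenous gene are counted together. The cDNA also enters the PSI. The 66-nt exon had 16.2 and 23.1 PSI in NI, 54.1 and 40.1 in Empty, and 0.90 and 2.09 in T7-TIA1, and the 33-nt exon reached 99.8 and 99.7, values at which the cDNA, which holds the 33-nt exon and lacks the 66-nt exon by these reads, outweighs all else. Of the covered events, the PSI rule called 5 of *Tia1* and 2 of *Tial1* in Empty against NI (0.679% of all events), 8 and 4 in T7-TIA1 against NI (0.721%), and 9 and 3 in T7-TIA1 against Empty (0.342%), the comparison the genes were selected on. In the 2 comparisons with T7-TIA1, 6 of 8 and 7 of 9 called *Tia1* events were lower, and all called *Tial1* events were higher.

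Reads that the cDNA cannot give were set apart to follow the endogenous gene. Exon-intron reads over 12 introns of *Tia1* numbered 1.511 and 2.413 RPM in NI of the overexpression dataset, 3.030 and 2.435 in Empty and 1.727 and 2.500 in T7-TIA1, so that T7-TIA1 overlapped with both other groups. Reads of the 66-nt exon junctions were 0.345 and 0.661 in NI, 1.460 and 1.151 in Empty and 0.894 and 1.436 in T7-TIA1, where T7-TIA1 overlapped with Empty and lay above NI. Per 100 exon-intron reads of the same library, they were 22.8 and 27.4 in NI, 48.2 and 47.3 in Empty and 51.8 and 57.4 in T7-TIA1, where the 3 groups did not overlap. In the knockdown dataset this ratio was 37.5 and 35.35 in NI and 48.1 and 42.1 in shSCR. It ranged from 29.8 to 47.8 with shCPSF3 and from 31.6 to 39.5 with shUL1. The shCPSF3#1 libraries (41.0 and 29.8) lay further apart from each other than Empty lay from T7-TIA1. Reads of the 119-nt exon in the overexpression dataset were 0.053 and 0.165 RPM in NI, 0.328 and 0.308 in Empty and 0.10 and 0.216 in T7-TIA1. They came from 14 to 75 reads per library, and T7-TIA1 lay below Empty and overlapped with NI. Exon-exon reads, which the cDNA does give, were 11.4 and 11.1 RPM in Empty and 419 and 297 in T7-TIA1. The endogenous share of skipping in T7-TIA1 cannot be read from these data. The knockdown dataset has no cDNA, and there exon-intron reads were 1.209 and 1.193 RPM in NI, 2.954 and 2.773 in shSCR, 2.230 to 3.045 with shCPSF3 and 2.810 to 3.782 with shUL1, while exon-exon reads were 9.170 and 9.782 in NI, 9.096 and 7.798 in shSCR, 10.4 to 12.4 with shCPSF3 and 12.1 to 14.4 with shUL1. Every knockdown library had more exon-exon reads than both shSCR libraries, whereas exon-intron reads of both knockdowns overlapped with shSCR.

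**Figure D5:**
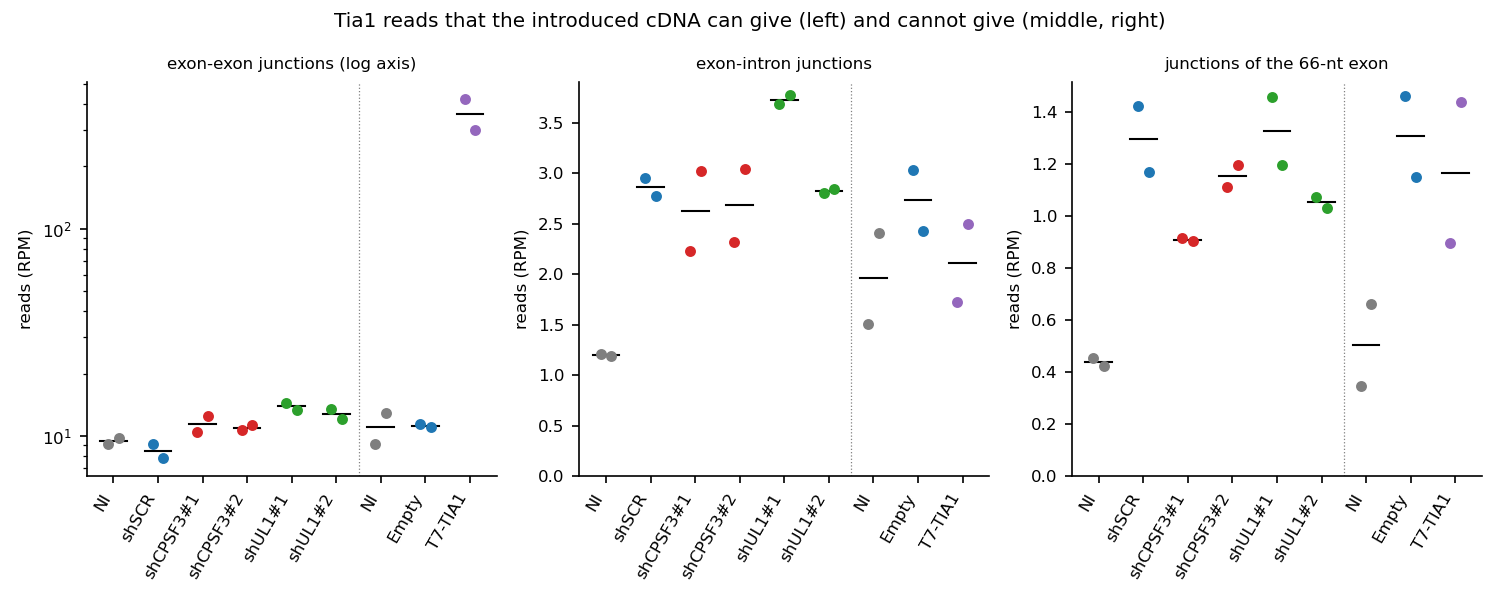
*Tia1* reads in RPM in all 18 libraries: exon-exon junctions on a log axis (left), exon-intron junctions of 12 introns (middle) and junctions of the 66-nt exon (right), with points for libraries and lines for group means. Exon-exon reads reach 297 and 419 in T7-TIA1, while in the 2 other panels the T7-TIA1 libraries overlap with Empty.

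Other genes of the pathway were read from 4 lists. Of 15 U1 snRNP and 5′ splice site factors, 4 rose and 1 fell between NI and shSCR, none rose and 3 fell with shCPSF3, and none passed with shUL1, with list medians of −0.01, −0.35 and −0.16 log2 units. Of 22 stress granule proteins, 4 rose and 2 fell, 2 rose and 3 fell, and 1 fell, with medians of −0.05, −0.17 and −0.13. Of 19 listed proteins (of 21) that bind U-rich or AU-rich RNA, 2 rose and 4 fell, 1 rose and 2 fell, and 1 rose and 1 fell, with medians of −0.12, −0.36 and −0.13. Of 5 listed genes (of 7) with exons tied to TIA1 or TIAR, 1 fell, 1 rose and none passed in the same 3 comparisons, with medians of −0.30, 1.01 and 0.37. The medians of all genes were 0.00, 0.03 and 0.00. Together, 29.5%, 19.7% and 4.92% of the 61 list genes passed, below the 44.5%, 26.1% and 10.5% of all genes, so these counts are no result about the lists. With the replicate number as a block, 32 list genes in place of 12 passed with shCPSF3, where 49.8% of all genes did, and 11 in place of 3 with shUL1, where 29.3% did. No list gene passed between shCPSF3 and shUL1.

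Among the genes that passed, the largest differences between shSCR and NI were those of the collagen gene *Col2a1* (−3.28, SE 0.90, adjusted p = 0.0186), the mRNA decay factor *Zfp36l1* (1.98, SE 0.54, adjusted p = 0.0185), the splicing regulator *Celf2* (−1.43, SE 0.22, adjusted p = 0.00129), the U1 snRNP-associated *Prpf40b* (1.37, SE 0.16, adjusted p = 0.000367) and the translation initiation factor *Eif4g1* (−1.04, SE 0.12, adjusted p = 0.000439), all by *limma*. With shCPSF3 they were the growth factor receptor *Fgfr2* (1.30, SE 0.30), the FMRP relative *Fxr1* (−1.01, SE 0.22), *Celf2* (0.78, SE 0.19), the poly(C)-binding protein *Pcbp2* (−0.68, SE 0.16) and the stress kinase *Eif2ak4* (−0.65, SE 0.14), with adjusted p from 0.0138 to 0.0196. With shUL1 the 3 that passed without the block were *Celf2* (0.88, SE 0.19, adjusted p = 0.0259), *Eif2ak4* (−0.61, SE 0.14, adjusted p = 0.0346) and the splicing activator *Tra2a* (−0.51, SE 0.12, adjusted p = 0.037). *Snrpc*, which encodes the C protein of the U1 snRNP that TIA1 contacts and is named here after its values were seen, did not pass in any of these comparisons (−0.36, −0.35 and −0.16, adjusted p from 0.294 to 0.689).

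Over the 12 knockdown libraries, the genes whose log2 expression was most like that of *Tia1* were *Mmp23* (Pearson r = 0.961), *Sgce* (0.951) and *Crocc2* (0.942). For *Tial1* they were *Arglu1* (0.968), *Deaf1* (0.958) and *Plekha5* (0.935). *Tia1* and *Tial1* themselves had r = −0.391. The libraries share 6 groups and the tables' scaling, so these values describe the pattern over groups and carry no test.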

How the data were processed

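The authors sequenced stranded paired-end libraries of MEFs and mapped them to mm10 with *STAR* 2.7.1a, per their processing notes. Expression is a signal that the authors deposited, CPM from *edgeR* 3.16.5 relative to a scaled library size, for genes past their filter on level and variation. Plain CPM had been expected, and whole reads could not be recovered, so no count test was run. For splicing, the authors deposited PSI in percent from *vast-tools*, run with strand information, beside a coverage score and the reads of each event. Events with at least 10 reads (score VLOW) in every library compared were used. No column of another comparison was used.

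Expression was tested with *limma* 3.58.1 (R 4.3.3) on log2(scaled CPM + 1), and events on log2 of inclusion over exclusion reads with 1 read added to each, weighted by counting variance. Each fit held the 12 knockdown libraries, and both shRNAs of a factor were averaged before they were set against shSCR. Tests are two-sided, adjusted by Benjamini-Hochberg over 9435 genes or 374159 events. The threshold was an adjusted p under 0.05. No test was run in the overexpression dataset. RPM values are relative to the reads on events of all other genes, which summed to 223978368 to 264136288 per library with a read entering once per event. Events near the minimum of 10 reads carry wide counting error. In data simulated for shCPSF3 against shSCR, 121 of 200 genes changed by 1 log2 unit were recovered with 7 false calls among 9435 genes. For 200 events changed by 1.5 units, 121 were recovered with 25 false calls among 40000, of which 2 lay between 5 and 95 PSI. The simulated noise was independent between libraries, whereas same-numbered day 12 libraries were correlated (below), and for events its spread was set by choice. The planted change of genes also exceeds the differences of *Tia1* and *Tial1*, so these rates do not describe the reported calls. Counts and figures were made with Python 3.11.15, pandas 2.3.3, NumPy 2.4.6, SciPy 1.17.1, Biopython 1.88 and Matplotlib 3.10.9.

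The members and lists were chosen with earlier results of these data known. Named were both genes, list genes that passed (at most 5 per comparison), the 3 most similar genes of each, and events that passed the test or the PSI rule, with a few fixed events. Sequences were read from GENCODE vM21 transcripts (GRCm38, the same build as mm10). One sequence is not reported here. Alternatives left out each library, changed the added reads, the filter, the scaling, the weights, the groups fitted and the coverage minimum, or added a replicate block. The labels do not say what a replicate number marks. Deviations of same-numbered libraries from their group means correlated at 0.674 to 0.949 across genes for every pair of day 12 groups, and at −0.127 to 0.0218 for pairs with NI. The numbers thus paired the day 12 groups, by the data and not by the design, and not NI.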

Additional observations from a re-analysis of the deposited data

How the results depend on the processing

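With 2 libraries per group, the calls rest on the spread shared over all 12 knockdown libraries. A fit of only the groups compared, which has fewer libraries to set that spread, ended every call: 0 events of the 2 genes passed in each of the 3 comparisons, and expression gave *Tia1* 0.36 (adjusted p = 0.140) and *Tial1* −0.45 (adjusted p = 0.124) with shCPSF3 and *Tia1* 0.54 (adjusted p = 0.0840) with shUL1, by *limma*. Shifting the libraries to a common median turned the *Tia1* difference between shSCR and NI to −0.020 (adjusted p = 0.909) and brought *Tial1* with shUL1 past the threshold (−0.43, adjusted p = 0.0452). Unweighted PSI called 8 events between shSCR and NI and 2 with shCPSF3. Adding 0.5 reads called 12 and 2, losing the 68-nt and 69-nt exons and the 1850-nt intron, and with shCPSF3 the 60-nt exon. A coverage score of LOW called 12 between shSCR and NI, losing the 69-nt exon and leaving the site pair at 100 PSI untested.

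Leaving out each library in turn gave *Tia1* 0.31 to 0.40 with shCPSF3 and 0.50 to 0.59 with shUL1, and *Tial1* 0.26 to 0.39 between shSCR and NI, −0.53 to −0.37 with shCPSF3 and −0.47 to −0.37 with shUL1. *Tial1* passed between shSCR and NI and with shUL1 when either shCPSF3#2 library was left out. Between shCPSF3 and shUL1, *Tial1* ranged from −0.11 to 0.052, the sign turning without shCPSF3#2 replicate 1 (0.052) and without shUL1#2 replicate 2 (0.020). The events called numbered 5 to 15 between shSCR and NI (fewest without NI replicate 1), 0 to 3 with shCPSF3 and 0 to 4 with shUL1, none being called in either without shSCR replicate 1. By the PSI rule, a minimum of 15 PSI called 3 events with shUL1 against shSCR, 4 in Empty against NI and 7 in T7-TIA1 against NI. Leaving out one replicate number called 6 to 10 with shUL1 against shSCR and 6 to 11 in Empty against NI. The cause of these shifts was not tested.

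With the replicate number as a block, 17, 5 and 3 events passed in the 3 comparisons, *Tial1* passed between shSCR and NI (0.33, adjusted p = 0.0413) and with shUL1 (−0.42, adjusted p = 0.0214), and 29, 32 and 11 pathway genes passed. The events added were a 168-nt intron and a second intron of *Tia1* between shSCR and NI and both sites of the 109-nt exon with shCPSF3, and the block ended no call of an event or of expression. The *edgeR* test on whole reads was not run. Depth limits most the 6165-nt intron (50 to 108 reads per library) and the site pair at 100 PSI (22 to 96 reads).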
